A study of Mus musculus with 48 samples.

Results

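MHC class II and its regulators comprised 9 genes of the 51789 gene IDs in the deposited count table, chosen by symbol and not by any measured value. They were the classical chain genes H2-Aa, H2-Ab1 and H2-Eb1, the peptide-editing genes H2-DMa, H2-DMb1 and H2-DMb2, the invariant chain gene Cd74, the transactivator gene Ciita and the ubiquitin ligase gene March1. All 9 were found, and all 9 passed the filter on low counts both in the fit of peritoneal and in the fit of bone marrow-derived libraries. H2-DMb2 and Ciita were close to that limit: they reached 10 or more counts in 26 and 22 of 48 libraries, and Ciita was at 0 counts in 13.

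Mouse macrophages gave all libraries, after 4 h in either DMSO, the solvent and vehicle, or AP-3-84 at 10 µM. AP-3-84 is a code name whose target and structure are not described in the labels. There were 16 groups of 3 libraries, made up of 8 populations with each treatment. Ascites cells were F4/80+ cells taken by magnetic beads from the peritoneal wash of mice 45 days after they received ID8, a mouse ovarian tumour line. Their strain label is C57BL/6 and their genotype label B6(Cg)-Tyrc-2J/J. Thio cells were F4/80+ cells of wild-type C57BL/6 mice, sorted likewise, 4 days after an intraperitoneal dose (1 ml of 3%) of thioglycollate, which recruits macrophages there by irritation. Bone marrow-derived macrophages made up the other 6 populations, with 6 days of culture in M-CSF at 10 ng/mL. M0 cells had no further cytokine, M1 cells had a further 24 h in LPS (100 ng/mL) with interferon-γ (50 ng/mL), and M2 cells had a further 24 h in 10 ng/mL IL-4 with 10 ng/mL IL-13. Each state was made from wild-type (WT) and from p53 knockout (KO) marrow by title, while the genotype field calls all of these libraries wild-type C57BL/6. The labels do not say that the 3 libraries of a group are separate animals or cultures, so p-values measure only the spread between these libraries, which may be technical. They also give neither the allele nor the cells in which p53 was removed.

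MHC class II molecules show peptides from endocytosed material to CD4+ T cells. The α and β chains pair in the endoplasmic reticulum and bind the invariant chain, which blocks the peptide groove and steers the complex to endosomes. There cathepsins trim the invariant chain, and the H2-DM heterodimer exchanges its last fragment for peptide. CIITA, which does not itself bind DNA, is the switch of the chain, invariant chain and H2-DM genes: it docks on a complex of RFX, CREB and NF-Y that binds the X and Y boxes upstream of them. In macrophages interferon-γ induces Ciita through JAK kinases and IRF1, IL-4 can raise class II as well, and MARCH1 ubiquitinates the β chain at the surface and sends it to lysosomes, a step that IL-10 strengthens and CD83 opposes.

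The X and Y boxes could be read upstream of 4 members, which is why these stretches are shown. RefSeq promoter windows of 300 bases (GRCm38.p6, from 250 bases before to 50 after a start) matched 6 of the 9 members. They were searched for the X-box core CTNNNAAC followed after 15 to 30 bases by the Y box ATTGG. Capitals mark the X-box core on the left and the Y box on the right. Each stretch is written 5′ to 3′ along the gene's own strand.
H2-Aa: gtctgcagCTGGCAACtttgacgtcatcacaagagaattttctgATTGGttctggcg
H2-Eb1: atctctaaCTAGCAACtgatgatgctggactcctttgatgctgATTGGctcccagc
H2-DMb1: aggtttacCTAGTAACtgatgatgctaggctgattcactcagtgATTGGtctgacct
H2-DMb2: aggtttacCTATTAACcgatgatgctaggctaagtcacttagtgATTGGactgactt
H2-Ob: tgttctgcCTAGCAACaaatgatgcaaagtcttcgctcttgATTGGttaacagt
The stretches lie at chr17:34287859-34287915 for H2-Aa (minus strand) and, on the plus strand, at chr17:34305765-34305820 for H2-Eb1, chr17:34153086-34153142 for H2-DMb1, chr17:34145115-34145171 for H2-DMb2 and chr17:34238807-34238860 for H2-Ob, which encodes a chain of H2-O, an inhibitor of H2-DM, and is no member. The X-box core began 84 bases before the start in H2-Aa, 94 in H2-Eb1, 97 in H2-DMb1, 126 in H2-DMb2 and 90 in H2-Ob. Of 32841 RefSeq windows, 0.734% held the pair on the gene's strand or the other, while the X-box core alone was in 41.1% and the Y box alone in 37.4%. The pair was not found in the 2 windows of H2-DMa, the 3 of March1 or that of H2-Oa. The H2-DMa windows lie at chr17:34122582-34122881 and chr17:34125268-34125567, and the gene is annotated from 34119541 to 34139101. Any other start of H2-DMa was not searched, so its lack of a pair holds for these 2 windows only. The search covered both strands. H2-Ab1, Cd74 and Ciita were not among the windows. These letters were picked with the windows in view, and a match describes the sequence only.

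**Figure D1:**
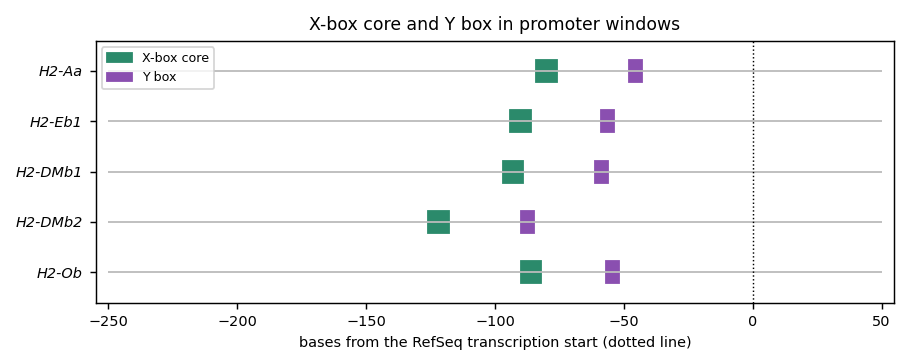
Place of the X-box core CTNNNAAC and the Y box ATTGG in the RefSeq promoter windows of 4 members and H2-Ob, in bases from the transcription start. The X-box cores begin 84 to 126 bases before the start and the Y boxes 48 to 90 bases before it.

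Libraries held 15532373 to 19417581 counts in the 12 peritoneal libraries and 3081707 to 4645148 in the 36 bone marrow-derived ones, a 4.3-fold difference between the medians, so low genes are measured less precisely in the latter. The 2 sets were scaled and fitted apart, and levels are set side by side across them only as a description. The gene targeted in KO mice, Trp53, had overlapping levels: 4.77 to 13.2 CPM (counts scaled to a common library size, with TMM factors within each set) over 18 WT libraries, and 2.68 to 9.14 CPM over 18 KO libraries. The removed part of Trp53 is not named in the labels. Its target Cdkn1a had 558 to 1110 CPM in WT libraries but 33.9 to 299 CPM in KO libraries, without overlap. All 8 macrophage markers were above 0 in every library, with summed levels of 5960 to 49100 CPM in marrow and 23900 to 34800 CPM in peritoneal libraries. Among them Lyz2 ranged from 3080 to 41600 CPM in marrow, and Csf1r, with the next highest maximum, from 1060 to 8030 CPM. A macrophage marker sum, here and below, can thus change with Lyz2 alone. The dendritic cell markers summed to 0 to 12.6 CPM in marrow and 18 to 37 CPM in peritoneal libraries. Among them Xcr1 was at 13.7 to 32.6 CPM in every peritoneal library and at or under 1.01 CPM in marrow, Zbtb46 reached 12 CPM in marrow, and Flt3 stayed at or under 0.539 CPM throughout.

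Levels of the classical chains and the invariant chain formed a graded order of groups, and March1 followed another order. H2-Aa, which encodes the I-A α chain, had group means of 1530 CPM in KO_M2 with AP-3-84, 886 in KO_M2 with vehicle, 672 in WT_M2 with vehicle, 603 and 552 in Ascites with AP-3-84 and vehicle, and 379 in KO_M0 with vehicle. WT_M2 with AP-3-84 at 267 CPM and KO_M0 with AP-3-84 at 195 CPM lay between, and the other 8 groups were at 67.4 CPM or less, down to 17.1 CPM in WT_M1 with AP-3-84. In that order the ranges of the 3 libraries overlapped between most neighbours; they did not overlap between Ascites and KO_M0 with vehicle, between Thio with vehicle and WT_M0 with AP-3-84, or between KO_M1 with vehicle and WT_M1 with AP-3-84. Cd74 ran from 1300 CPM in KO_M2 with AP-3-84 to 21.6 CPM in WT_M1 with vehicle. Ciita had a mean of 22 CPM in KO_M2 with AP-3-84, from 8.7 to 1.5 CPM in the next 7 groups, and under 1 CPM in the other 8. Thus the group with the highest mean was the same for all of H2-Aa, Cd74 and Ciita. March1 was highest in both Ascites groups at 103 CPM each, followed by WT_M1 with vehicle at 86.7 CPM, and lowest in KO_M2 with vehicle at 16.5 CPM.

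**Figure D2:**
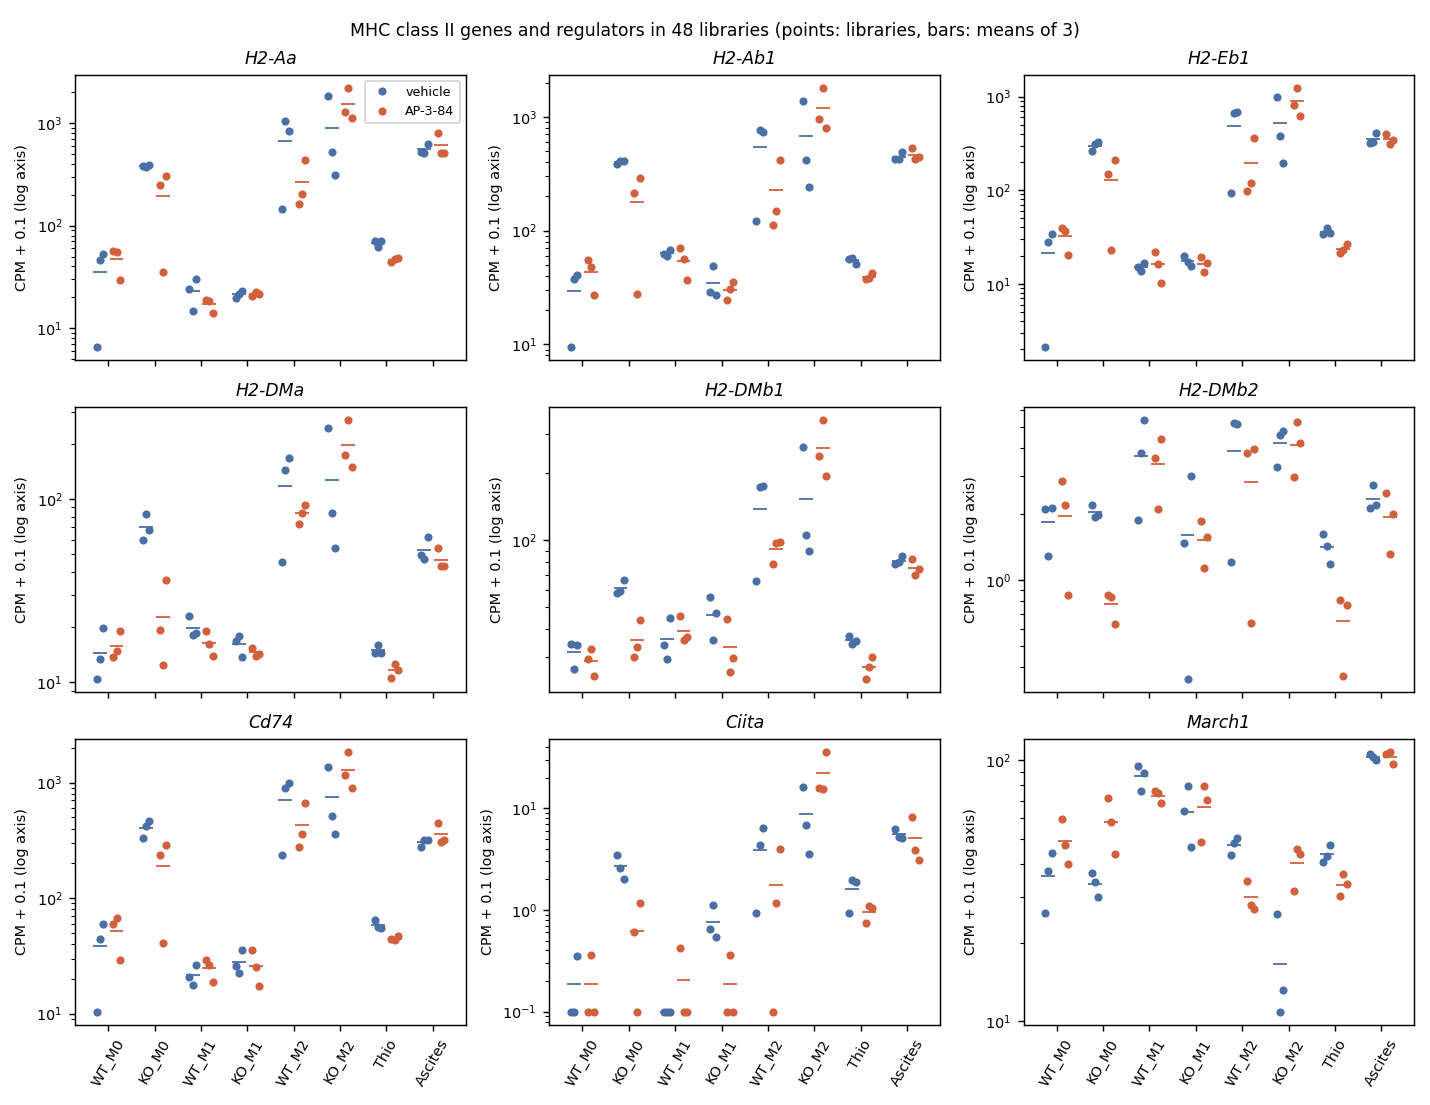
Level of each member in 48 libraries, in CPM plus 0.1 on a log axis, by population; points are libraries, bars the means of 3, blue vehicle and orange AP-3-84. H2-Aa lies between 14.8 and 29.9 CPM in WT_M1 vehicle libraries and between 312 and 1830 CPM in KO_M2 vehicle libraries, while March1 is lowest in KO_M2 vehicle libraries.

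Polarization with IL-4 and IL-13 raised 7 of the 9 members in WT cells. H2-Aa was at 6.49, 46.3 and 52.6 CPM in the 3 WT_M0 vehicle libraries and at 144, 1040 and 832 CPM in the 3 WT_M2 vehicle libraries. All M2 libraries lay above all M0 libraries, and replicate 1 was the lowest of 3 in both groups. The difference was 4.26 on the log2 scale (SE 0.800, edgeR adjusted p 0.00036). H2-Ab1, the I-A β chain gene, went from 9.4, 37.7 and 40.8 CPM to 122, 759 and 741 CPM, and H2-Eb1, the I-E β chain gene, from 2.02, 27.7 and 33.9 CPM to 93.6, 670 and 676 CPM. Again no M2 library lay within the M0 range. Cd74 was at 10.3, 43.9 and 59.9 CPM in M0 and at 234, 897 and 1000 CPM in M2, a log2 difference of 4.23 (SE 0.699, edgeR adjusted p 8.02e-05). For the DM genes the differences were smaller, 3.04 for H2-DMa (SE 0.465) and 2.13 for H2-DMb1 (SE 0.340), which encode the α and the main β chain of H2-DM. H2-DMb2, the second β chain gene, was at 1.19 to 2.04 CPM in M0 and at 1.11, 5.12 and 5.06 CPM in M2 (log2 difference 1.08, edgeR adjusted p 0.215). March1 was at 26, 37.7 and 43.9 CPM and at 43.1, 48.2 and 50.3 CPM (edgeR adjusted p 0.255).

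Ciita moved with its targets in this comparison. It had 1 count over the 3 WT_M0 vehicle libraries and 37 counts over the 3 WT_M2 vehicle libraries, of which 3 were in replicate 1, 14 in replicate 2 and 20 in replicate 3. The ratio of these sums, each divided by the TMM-scaled library sizes of its group, was 46.2, with an exact 95% interval of 7.79 to 1870 that covers counting error only. Replicate 1 of WT_M2 vehicle was thus lowest for Ciita as for the chain genes. Of all genes tested, 23.4% passed the test in this comparison and 12.7% rose, and the median log2 difference was 4.21 over the 9 members against 0.01 over all genes. The same replicate 1 differed from its group in other ways: without the members its mean distance to the other 2 libraries was 1.35 times the distance between those, and its 6 neutrophil markers, led by S100a8 and S100a9, summed to 3990 CPM against 585 and 465 CPM. The 8 dendritic cell markers summed to 0, 1.67 and 0.255 CPM in WT_M0 and to 6.39, 12.6 and 12.3 CPM in WT_M2 vehicle libraries, with replicate 1 the lowest of both groups as for H2-Aa. In the WT_M2 vehicle libraries 6, 6 and 4 of the 8 were at 0 counts. Over all marrow libraries Zbtb46 reached 12 CPM and Ccr7 3.54 CPM, and the other dendritic cell markers stayed at or under 1.01 CPM. The part of these markers in the result was not tested. With only the 6 libraries of the compared groups in the fit, 7 of the 9 members were tested, Ciita not among them, and 3 in place of 7 were called. H2-Aa then had an edgeR adjusted p of 0.0831 at the same log2 difference of 4.26 (3.88e-08 to 0.0831 over the alternatives that kept the filter on low counts).

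Some genes that act before or beside class II in this pathway also rose in M2, where 12.7% of all genes rose. Of 10 genes of interferon-γ signalling to Ciita, 4 rose and 0 fell, with Socs1 at 3.66 on the log2 scale (SE 0.492, edgeR adjusted p 2.35e-06) and Irf1 at 2.20 (SE 0.273). Socs1 is a feedback inhibitor of JAK kinases, and IRF1 is a transcription factor that binds the interferon-inducible Ciita promoter. Of 5 genes of IL-4 signalling, 2 rose, among them Irf4, a transcription factor induced by IL-4, at 6.88 (SE 0.867, edgeR adjusted p 1.38e-06) and Il2rg, the common γ chain, at 0.53. Of 8 antigen-processing genes 5 rose, led by Ctss, the cathepsin that trims the invariant chain, at 1.5 and Ctsd at 1.11. Cd83 rose by 2.49 and Il10 fell by 2.20, which were the largest changes among 5 genes of class II turnover and surface partners. Of the 7 subunit genes of the complex on the X and Y boxes (Rfx5, Rfxap, Rfxank, Creb1, Nfya, Nfyb and Nfyc), 0 passed the edgeR test and 1, Rfxap, had an unadjusted p under 0.05 (median log2 difference -0.13).

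Unpolarized p53 KO macrophages carried the chain genes and Cd74 far above WT M0 cells, at levels within the range of the WT M2 libraries. H2-Aa was at 379, 369 and 388 CPM in KO_M0 vehicle libraries, against 6.49, 46.3 and 52.6 CPM in WT_M0. H2-Ab1 was at 388, 409 and 406 CPM against 9.4 to 40.8 CPM, and Cd74 at 333, 419 and 466 CPM against 10.3 to 59.9 CPM. The 3 KO libraries lay close together and all above the WT libraries. On the log2 scale KO was higher by 3.44 for H2-Aa (SE 0.775, edgeR adjusted p 0.00153), by 3.78 for H2-Ab1 (SE 0.789, edgeR adjusted p 0.00079), by 3.83 for H2-Eb1 (SE 0.827) and by 3.42 for Cd74 (SE 0.677). H2-DMa, at 59.6, 83.2 and 67.4 CPM against 10.3, 13.4 and 19.6 CPM, was higher by 2.28, and H2-DMb1 by 0.96 (edgeR adjusted p 0.0282). The call of H2-DMb1 was lost when any of 5 of the 6 libraries was left out, WT_M0 replicates 1, 2 and 3 and KO_M0 replicates 2 and 3, with edgeR adjusted p from 0.0504 to 0.104.

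The KO_M0 vehicle libraries held 28 counts of Ciita (13, 8 and 7) and the WT_M0 ones 1, a ratio of 32.6 on the same scale with an exact 95% counting interval of 5.39 to 1330. It rose with 6 other members, so that 7 of 9 were higher in KO_M0 and 0 lower, where 33.2% of all genes passed in either direction and 16.4% were higher. The median over the members was 3.42 against 0.03 over all genes. H2-DMb2 (log2 difference 0.15, edgeR adjusted p 0.878) and March1 (-0.09, edgeR adjusted p 0.802) did not pass. March1 stood at 29.7 to 36.8 CPM in KO_M0 and at 26 to 43.9 CPM in WT_M0, and these ranges overlap.

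Beside the members, Ifngr1, a subunit of the interferon-γ receptor, was higher in KO_M0 by 1.64 (SE 0.253, edgeR adjusted p 1.46e-05), and Socs1 was lower, at -2.55 (SE 0.830, edgeR adjusted p 0.0186). In all 4 of the 10 genes of that list were higher and 1 lower. Of the antigen-processing genes 4 of 8 were higher and 2 lower, with Ctsl at -1.29 and Ctss at 1.20. Cd83 was higher by 2.8 (SE 0.403) and Cd86, a costimulatory ligand, by 1.09. Of the subunit genes of the promoter complex only Creb1 passed (0.63, edgeR adjusted p 0.00399). WT and KO cells come from different mice, and the B-cell markers summed to 24.5 to 36.2 CPM in KO_M0 against 7.16 to 14.8 CPM in WT_M0; B cells carry class II too, and the part of this in the result was not tested.

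The chain genes did not pass the test between the genotypes in M2 or M1. In M2, H2-Aa was at 1830, 516 and 312 CPM in KO and at 144, 1040 and 832 CPM in WT libraries, ranges that overlap (log2 difference 0.40, SE 0.688, edgeR adjusted p 0.801). In M1, it was at 19.5 to 23.2 CPM in KO and at 14.8 to 29.9 CPM in WT (-0.10, SE 0.784, edgeR adjusted p 0.96). In M1 no member passed the edgeR test, where 11.6% of all genes did; Ciita alone had an unadjusted p under 0.05, and DESeq2 called 0 members. Ciita had 8 counts over the KO_M1 vehicle libraries and 0 over the WT_M1 ones, which makes it at least 2.45-fold higher by a floor of 3 counts over the group. In M2 only March1 passed, where 3.56% of all genes did and 2.34% were lower: it was at 25.7, 10.8 and 13.1 CPM in KO_M2 and at 43.1, 48.2 and 50.3 CPM in WT_M2, a log2 difference of -1.52 (SE 0.260, edgeR adjusted p 0.000675). All 3 KO libraries lay below all 3 WT libraries, although the call was lost with only those 6 libraries in the fit (edgeR adjusted p 0.161, with 3.72e-06 to 0.161 over the alternatives that kept the filter). Macrophage markers summed to 5960 to 18400 CPM in KO_M2 and to 25000 to 30900 CPM in WT_M2 vehicle libraries. The neutrophil markers summed to 397 to 3120 CPM and 465 to 3990 CPM. The part of these lists in the March1 call was not tested.

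**Figure D3:**
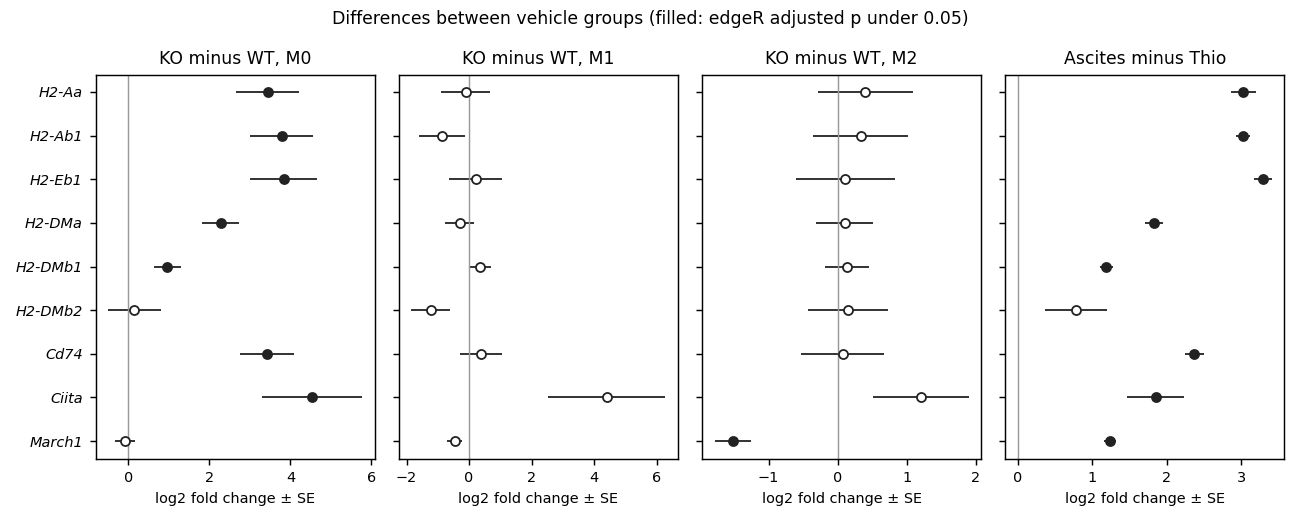
Log2 differences ± SE of the 9 members between vehicle groups of 3 libraries, KO minus WT in M0, M1 and M2 and Ascites minus Thio; filled points passed the edgeR test. In M0, 7 points lie above 0 and are filled, in M2 only March1 is filled, below 0, and in Ascites minus Thio all but H2-DMb2 are filled.

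Whether the response to polarization differed between the genotypes was tested directly. From M0 to M2, the 5 members H2-Aa, H2-Ab1, H2-Eb1, H2-DMa and Cd74 and also March1 had a lower difference in KO than in WT, so 6 of 9 passed where 27.1% of all genes did and 13.2% were lower. The difference of differences was -3.03 for H2-Aa (SE 1.01, edgeR adjusted p 0.0288), -3.35 for Cd74 (SE 0.889, edgeR adjusted p 0.00736) and -1.43 for March1 (SE 0.359, edgeR adjusted p 0.00374). The call of H2-Aa was lost without WT_M0 replicate 1, WT_M2 replicate 2 or 3, KO_M0 replicate 3 or KO_M2 replicate 2 or 3 (edgeR adjusted p from 0.0505 to 0.0798). With only the 12 libraries of the groups compared March1 alone was called, with an edgeR adjusted p of 0.14 for H2-Aa and 0.0561 for Cd74 (0.0043 to 0.14 and 0.00111 to 0.0561 over the alternatives that kept the filter). The WT_M0 and KO_M0 groups enter these values and the comparison of genotypes in M0 alike, so the results are not separate. Within KO cells, the log2 difference of M2 from M0 was 1.22 for H2-Aa (SE 0.698, edgeR adjusted p 0.172) and 0.88 for Cd74 (edgeR adjusted p 0.262). H2-DMb1 rose by 1.31 (SE 0.327, edgeR adjusted p 0.00231), from 58.2, 58.9 and 66.3 CPM to 262, 106 and 89.6 CPM. March1 fell by 1.03 (SE 0.261, edgeR adjusted p 0.0023), from 36.8, 34.1 and 29.7 CPM to 25.7, 10.8 and 13.1 CPM. Thus 1 member rose and 1 fell, where 38.0% of all genes passed, 20.1% higher and 18.0% lower.

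The KO_M2 vehicle libraries differed widely among themselves. Replicates 1, 2 and 3 had 1830, 516 and 312 CPM of H2-Aa, 1370, 420 and 242 CPM of H2-Ab1, 1370, 518 and 358 CPM of Cd74, and 60, 30 and 14 counts of Ciita. The same order held for all of them. The 8 macrophage markers summed to 18400, 9390 and 5960 CPM in these libraries, and the neutrophil markers to 397, 687 and 3120 CPM. The dendritic cell markers summed to 9.01, 4.72 and 2.47 CPM, in the order of the class II genes. At 0 counts were 5, 5 and 4 of these 8 markers. The part of these 3 lists in the spread was not tested. In bulk RNA, fewer cells with class II and less class II RNA per cell cannot be told apart. Without replicate 1 the H2-DMb1 call was lost (log2 difference 0.68, edgeR adjusted p 0.065, with 0.000375 to 0.065 over the alternatives that kept the filter) and the count of called members in M2 against M0 was 1, and without replicate 3 the count went from 2 to 4.

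After LPS with interferon-γ, 5 members fell and March1 rose in KO cells. H2-Aa went from 379, 369 and 388 CPM in M0 to 19.5, 21.7 and 23.2 CPM in M1, a log2 difference of -4.14 (SE 0.808, edgeR adjusted p 0.000212). Cd74 went from 333, 419 and 466 CPM to 25.8, 22.2 and 35.8 CPM, a log2 difference of -3.86 (SE 0.694, edgeR adjusted p 8.69e-05). The M1 libraries lay far below all M0 libraries and close to each other. H2-Ab1 fell by 3.53, H2-Eb1 by 4.11 and H2-DMa by 2.13, so 5 of 9 members were lower and 1 higher where 44.5% of all genes passed, 21.8% lower and 22.8% higher, and the median was -2.13 against -0.01 over all genes. Ciita had 8 counts in M1 and 28 in M0 (edgeR adjusted p 0.0845), and H2-DMb1 differed by -0.41 (edgeR adjusted p 0.328). The macrophage markers summed to 32400 to 39000 CPM in KO_M0 and to 16300 to 25700 CPM in KO_M1 vehicle libraries, and the neutrophil markers to 575 to 695 CPM and 1530 to 2560 CPM; their part in the result was not tested. Brd2, which overlaps H2-DMa on the opposite strand, rose by 0.40 here, and whether the counting used strand is not given in the sources used here.

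WT cells started from a low level, and M1 polarization moved only March1 past the threshold, where 15.5% of all genes passed and 8.01% rose. H2-Aa was at 24.1, 14.8 and 29.9 CPM in WT_M1 vehicle libraries, within the range of WT_M0 (log2 difference -0.61, SE 0.767, edgeR adjusted p 0.659). H2-Ab1 was at 62.5, 59.5 and 67.9 CPM, above all 3 WT_M0 libraries, and its difference of 1.12 (SE 0.745) had an edgeR adjusted p of 0.351. Ciita had 0 counts over the 3 WT_M1 libraries and 1 over the 3 WT_M0 libraries, so no fold is given. The test of the genotype difference in this response passed for H2-Aa, H2-Ab1, H2-Eb1, H2-DMa and Cd74, with -3.53 for H2-Aa (SE 1.08, edgeR adjusted p 0.0222) and -4.65 for H2-Ab1 (SE 1.07, edgeR adjusted p 0.00301), where 20.7% of all genes passed and 9.51% were lower. Without WT_M0 replicate 1, the library with the lowest class II of its group, 2 members passed in place of 5; the count was also 2 without WT_M1 replicate 3 and 3 without KO_M1 replicate 2.

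Against M2, M1 was lower for 7 members in each genotype and higher for March1. In WT the difference was -4.87 for H2-Aa (SE 0.831), -3.09 for H2-Ab1 (SE 0.756), -5.04 for Cd74 (SE 0.734) and -1.93 for H2-DMb1 (SE 0.338), each with an edgeR adjusted p of 0.0032 or less, where 25.5% of all genes passed, 13.6% lower and 11.9% higher. Ciita had 0 counts in WT_M1 and 37 in WT_M2, at least 13.6-fold lower, and the median of -3.09 over the members was the same with Ciita at that bound. In KO the difference was -5.36 for H2-Aa (SE 0.848, edgeR adjusted p 3.55e-05) and -3.64 for Ciita (SE 0.836, edgeR adjusted p 0.00148), where 25.4% of all genes passed, 13.0% lower and 12.4% higher. Dexi, which overlaps Ciita on the opposite strand, differed by -0.97 there (edgeR adjusted p 0.00156). In KO cells it was also higher in M2 than in M0, by 0.6 (edgeR adjusted p 0.0321). The limit on strand given for Brd2 holds for Dexi too. H2-DMb2 passed in neither genotype (-0.05 in WT and -1.41 in KO).

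Among the genes upstream of Ciita, Socs1 rose in M1 cells of both genotypes. In WT, Socs1 rose by 2.09 (SE 0.506, edgeR adjusted p 0.00507), and 4 of the 10 genes of interferon-γ signalling rose and 0 fell, where 8.01% of all genes rose. In KO, Socs1 rose by 3.80 and Ifngr1 fell by 2.12 (SE 0.258, edgeR adjusted p 2e-07), with 3 of 10 higher and 3 lower, where 22.8% of all genes were higher and 21.8% lower. Il2rg rose by 1.26 in WT and 1.62 in KO, and Il4ra, the IL-4 receptor α chain, by 1.36 and 0.61. Il10 rose by 3.24 in KO, and Ctsl by 1.32. Nfyb was the only subunit gene of the promoter complex that fell in WT (-0.74), and Creb1 (-1.16) and Nfya (-0.58) fell in KO.

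**Figure D4:**
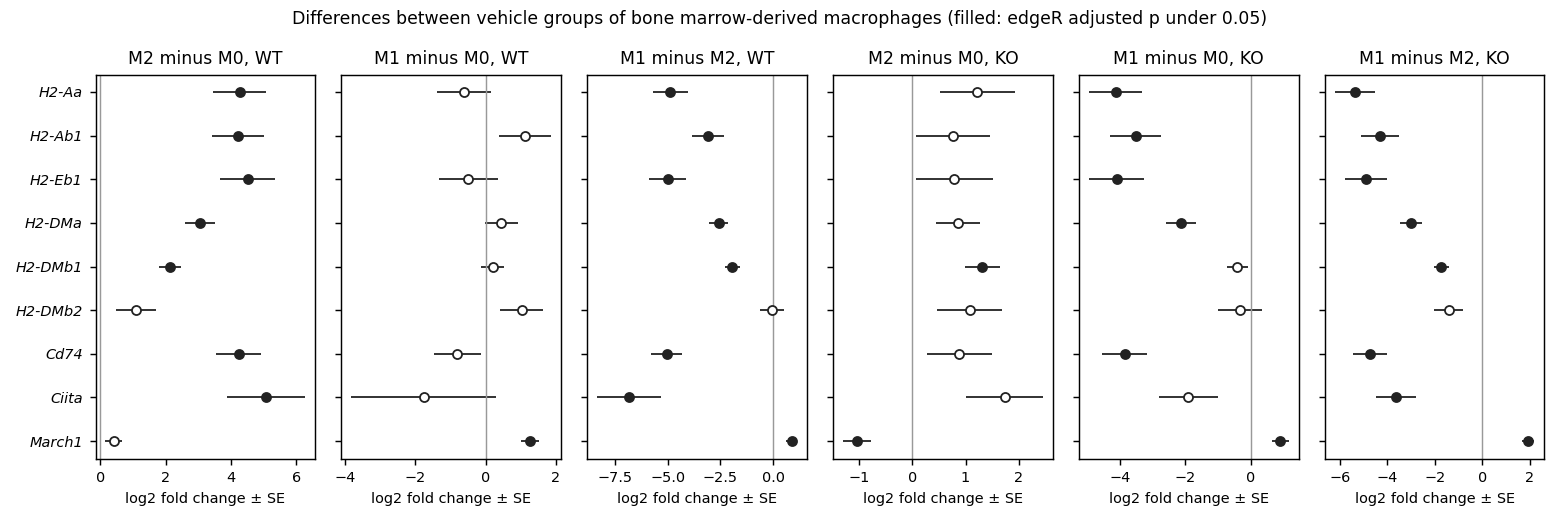
Log2 differences ± SE of the 9 members between M0, M1 and M2 vehicle groups of 3 libraries, in WT and KO cells; filled points passed the edgeR test. H2-Aa is higher in M2 than in M0 by 4.26 in WT, lower in M1 than in M0 in KO (-4.14), and lower in M1 than in M2 in both, while March1 is higher in M1 in every panel that compares it.

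March1, whose product removes class II from the surface, rose in M1 cells of both genotypes. It was at 95, 76.2 and 89 CPM in WT_M1 vehicle libraries against 26, 37.7 and 43.9 CPM in WT_M0, higher by 1.27 (SE 0.245, edgeR adjusted p 0.000465), and at 63.6, 79.3 and 46.3 CPM in KO_M1 against 29.7 to 36.8 CPM in KO_M0, higher by 0.91 (SE 0.246, edgeR adjusted p 0.00332). No M1 library lay within the M0 range of its genotype. M1 exceeded M2 by 0.88 in WT and by 1.94 in KO (SE 0.258, edgeR adjusted p 9.31e-07). Over the 12 marrow group means of log2 CPM, March1 had a Pearson r of -0.65 with the mean of H2-Aa, H2-Ab1, H2-Eb1 and Cd74, whereas H2-DMa had 0.96, Ciita 0.91, H2-DMb1 0.90 and H2-DMb2 0.45. These are descriptions over 12 group means that share the same libraries, and H2-DMb2 and Ciita rest on few counts.

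Ascites macrophages carried far more class II than Thio macrophages. H2-Aa was at 523, 511 and 623 CPM in Ascites vehicle libraries and at 69.9, 61.6 and 70.8 CPM in Thio, higher by 3.03 (SE 0.171, edgeR adjusted p 1.43e-07). H2-Ab1 was at 422, 427 and 489 CPM against 56.4, 57.3 and 50.4 CPM, higher by 3.03 (SE 0.0946, edgeR adjusted p 8.52e-14), and H2-Eb1 at 318, 328 and 405 CPM against 34.1, 39 and 34.5 CPM, higher by 3.29 (SE 0.121). The libraries of each group lay close together and the groups far apart. Cd74 was higher by 2.37 (SE 0.129), H2-DMa by 1.83 (SE 0.125) and H2-DMb1 by 1.19 (SE 0.0921). Ciita had 103, 104 and 93 counts in Ascites and 13, 31 and 33 in Thio, higher by 1.85 (SE 0.382, edgeR adjusted p 0.000952). March1 rose here with the chain genes: it was at 105, 103 and 100 CPM in Ascites and at 40.5, 43 and 47.3 CPM in Thio, higher by 1.24 (SE 0.0831, edgeR adjusted p 2.02e-09). In all 8 of 9 members were higher and 0 lower, where 33.7% of all genes passed and 20.3% were higher, and the median was 1.85 against 0.05 over all genes. H2-DMb2 did not pass (0.78, edgeR adjusted p 0.18).

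Around the members, Socs1 was higher in Ascites by 4.11 (SE 0.453, edgeR adjusted p 1.13e-06), with 6 of 10 genes of interferon-γ signalling higher and 2 lower. Rfx5, a subunit of the complex on the X box, was higher by 0.99 and Nfya lower, at -0.61. Of the IL-4 genes 4 of 5 were higher, led by Il2rg at 2.79 and Il13ra1 at 1.91, and Cd86 was higher by 2.50 and Cd83 lower, at -1.71. The antigen-processing genes went mostly the other way, with 5 of 8 lower and 2 higher: Ctsl, at -2.03, and Ctsd, at -1.71, had the largest differences. Tumour, elicitation and the genotype label differ between these groups together and cannot be told apart. The epithelial and mesothelial markers summed to 182 to 218 CPM in Ascites and to 3.14 to 5.48 CPM in Thio vehicle libraries. Over the 12 peritoneal libraries Krt18 among them reached 95.1 CPM, Krt8 60.8 CPM, Krt19 38.9 CPM and Upk3b 36.2 CPM. Msln reached 13.3 CPM, Cdh1 3.34 CPM and Epcam 1.78 CPM. The part of these markers in the result was not tested. Small peritoneal macrophage markers (Cd226, Ccr2, Irf4, Clec10a, Mrc1) summed to 300 to 315 CPM in Ascites and 111 to 121 CPM in Thio. Over the 12 peritoneal libraries Ccr2 ranged from 2.61 to 149 CPM and Mrc1 from 88.2 to 147 CPM. Clec10a stayed at or under 20.5 CPM there, Irf4 at or under 5.97 CPM and Cd226 at or under 0.838 CPM. This sum can thus change with Ccr2 and Mrc1 alone. Large peritoneal macrophage markers (Gata6, Timd4, Icam2, Alox15, Prg4, Selp) summed to 82.5 to 86.9 and 80.9 to 86.6 CPM. These sums are of vehicle libraries, and their part in the result was not tested either. Dendritic cell markers summed to 25.9 to 32 CPM in Ascites and 28.8 to 31.2 CPM in Thio vehicle libraries. Among them Xcr1 was at 13.7 to 32.6 CPM over the 12 peritoneal libraries. Flt3, Cd209a, Ccr7, Itgae and Dpp4 stayed at or under 0.759 CPM there. The part of dendritic cells in the result was not tested.

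AP-3-84 lowered 4 of 9 members past the threshold in Thio macrophages, by small amounts. H2-Eb1 was at 34.1, 39 and 34.5 CPM with vehicle and at 21.4, 22.6 and 26.6 CPM with AP-3-84, a log2 difference of -0.61 (SE 0.119, edgeR adjusted p 0.00938). H2-Ab1 went from 56.4, 57.3 and 50.4 CPM to 37.1, 38.3 and 42 CPM, a log2 difference of -0.48 (SE 0.0919, edgeR adjusted p 0.00521), and March1 from 40.5, 43 and 47.3 CPM to 30, 36.4 and 33.4 CPM, a log2 difference of -0.39 (SE 0.0846, edgeR adjusted p 0.012). In each of these genes all treated libraries lay below all vehicle libraries. H2-DMb1 fell by 0.40 (edgeR adjusted p 0.0205), so 4 of 9 were lower and 0 higher, where 4.32% of all genes passed and 1.82% were lower; the median was -0.48 against 0.03 over all genes. H2-Aa, from 61.6 to 70.8 CPM with vehicle and from 44.4 to 47.9 CPM with AP-3-84, had a difference of -0.54 (SE 0.165, edgeR adjusted p 0.119), and Cd74 of -0.40 (edgeR adjusted p 0.115). H2-DMa was at 14.3 to 15.8 CPM with vehicle and at 10.5 to 12.5 CPM with AP-3-84, and did not pass. H2-DMb2, at 1.08 to 1.53 CPM and 0.267 to 0.709 CPM, and Ciita, with 77 and 39 counts, did not pass either. All members but Ciita, 8 of 9, had an unadjusted p under 0.05 in edgeR. The count of called members fell to 2 without vehicle replicate 3 or without AP-3-84 replicate 1 or 2, and DESeq2 called 6. Ctsh (-0.38) and Ifi30 (-0.34) fell with 1 further antigen-processing gene, Cd83 fell by 0.52, and Ifngr1 and Irf8 by 0.25 each.

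In Ascites macrophages no member passed, where 1.79% of all genes did. The edgeR test gave 0 members at an unadjusted p under 0.05 and DESeq2 called 0. H2-Aa was at 523, 511 and 623 CPM with vehicle and at 788, 509 and 512 CPM with AP-3-84 (log2 difference 0.13, SE 0.156, edgeR adjusted p 0.843), and H2-Eb1 differed by 0 (SE 0.108). The responses of Ascites and Thio did not pass as different for any member after adjustment, with 0.54 for H2-Ab1 (SE 0.126, edgeR adjusted p 0.16), where 0.118% of all genes passed; 6 members had an unadjusted p under 0.05, and DESeq2 called 0.

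In KO_M0 cells AP-3-84 lowered H2-DMa and raised March1, where 20.7% of all genes passed, 8.57% lower and 12.1% higher. H2-DMa was at 59.6, 83.2 and 67.4 CPM with vehicle and at 19.2, 12.3 and 36.2 CPM with AP-3-84, a log2 difference of -1.64 (SE 0.444, edgeR adjusted p 0.00991). March1 was at 36.8, 34.1 and 29.7 CPM and at 71.6, 58.1 and 43.6 CPM, higher by 0.78 (SE 0.247, edgeR adjusted p 0.0223). In both genes the groups did not overlap. Among the chain genes all treated libraries lay below all vehicle libraries too, but they were spread widely: H2-Aa was at 246, 35.2 and 304 CPM against 369 to 388 CPM with vehicle (log2 difference -0.96, SE 0.699, edgeR adjusted p 0.35). Cd74 was at 237, 40.6 and 289 CPM against 333 to 466 CPM (-1.11, edgeR adjusted p 0.209), and Ciita had 2, 0 and 4 counts against 13, 8 and 7 (-2.27, SE 0.942, edgeR adjusted p 0.0849). Replicate 2 of the treated group was the lowest in each, and its macrophage markers summed to 18100 CPM against 39100 and 29300 CPM in the other treated libraries. The part of this was not tested. Without the members, the mean distance of replicate 2 to the other 2 treated libraries was 0.982 times the distance between those. For treated replicate 3 this ratio was 1.4. The median over the members was -1.18 against -0.03 over all genes. Dexi, on the strand opposite to Ciita, differed by -0.73 here (edgeR adjusted p 0.0247), and the strand used in counting is not given. Without treated replicate 1 or 2 no member was called, with an edgeR adjusted p for H2-DMa of 0.0561 and 0.0917 (0.000834 to 0.0917 over the alternatives that kept the filter). Without vehicle replicate 2 or 3 the count was 1, since March1 was lost (edgeR adjusted p 0.056 and 0.0887). March1 was also lost with a replicate block (log2 difference 0.76, edgeR adjusted p 0.0572) and with only the 6 libraries in the fit (edgeR adjusted p 0.0606), with 0.00546 to 0.143 over the alternatives that kept the filter.

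Around the members, Il10, a cytokine that restrains class II at the surface, rose in KO_M0 by 3.05 (SE 0.674, edgeR adjusted p 0.00191), from 1.08 to 3.99 CPM to 7.92 to 32 CPM, and Cd83 fell by 1.37 (SE 0.372, edgeR adjusted p 0.00931). Socs1 rose by 2.77, within a list of 10 of which 3 rose and 3 fell. Ctsd fell by 0.98 and Ctsb by 0.91, and 3 of 8 antigen-processing genes fell and 0 rose. Nfyc rose by 0.50 and Il2rg by 0.74. The difference between KO_M0 and WT_M0 in the response passed for no member in edgeR, where 17.0% of all genes passed: it was -1.77 for H2-DMa (SE 0.651, edgeR adjusted p 0.0604) and 0.33 for March1 (edgeR adjusted p 0.547). H2-DMa was the 1 member at an unadjusted p under 0.05 and the 1 member that DESeq2 called (adjusted p 0.0197). It was also called by edgeR without WT_M0 vehicle replicate 3 and without treated KO_M0 replicate 3.

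In M2 cells March1 responded differently to AP-3-84 in the 2 genotypes. It was at 25.7, 10.8 and 13.1 CPM with vehicle and at 31.5, 45.6 and 43.8 CPM with AP-3-84 in KO_M2, higher by 1.30 (SE 0.260, edgeR adjusted p 0.0439). In WT_M2 it was at 43.1, 48.2 and 50.3 CPM with vehicle and at 34.5, 27.8 and 26.9 CPM with AP-3-84, a difference of -0.67 (SE 0.251, edgeR adjusted p 0.23). Vehicle and treated libraries did not overlap in either genotype, and they lay in opposite order. The difference between these responses was 1.96 (SE 0.361, edgeR adjusted p 0.00461), and March1 was the 1 member that passed it, where 1.77% of all genes did and 1.08% were higher. The WT_M2 and KO_M2 vehicle libraries also enter the comparison of genotypes in M2 and the genotype difference from M0 to M2. The March1 results there and here are thus not separate. In KO_M2, 0.0509% of all genes passed and 0.0340% were higher, and the call of March1 there was lost without vehicle replicate 2 or 3 or treated replicate 2 or 3 (edgeR adjusted p from 0.174 to 0.63) and with only the 6 libraries in the fit (edgeR adjusted p 0.583). Without KO_M2 vehicle replicate 1, 3 members were called there, March1, H2-DMa and H2-DMb1. Macrophage markers in KO_M2 summed to 5960 to 18400 CPM with vehicle and to 13900 to 19100 CPM with AP-3-84. Neutrophil markers summed to 397 to 3120 CPM and 341 to 613 CPM, and the part of these lists was not tested.

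The chain genes of M2 cells did not pass in either genotype. H2-Aa was at 144, 1040 and 832 CPM with vehicle and at 162, 201 and 438 CPM with AP-3-84 in WT_M2 (log2 difference -1.33, SE 0.702, edgeR adjusted p 0.485). In KO_M2 it was at 1830, 516 and 312 CPM and at 1280, 2210 and 1110 CPM (0.79, SE 0.690, edgeR adjusted p 0.684). The groups overlap in both genotypes, since WT_M2 vehicle replicate 1 lay below and KO_M2 vehicle replicate 1 above the rest of its group. Without WT_M2 vehicle replicate 1 the count of members with a different response between genotypes went from 1 to 2, and without KO_M2 vehicle replicate 1 to 3. In WT_M2 no member passed, where 1.21% of all genes did; 1 member, March1, had an unadjusted p under 0.05, and DESeq2 called 0. Cd83 fell there by 1.5, Jak2 by 0.86 and Il2rg by 0.66.

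In WT_M0, WT_M1 and KO_M1 cells the edgeR test called 0 members, where 0.144%, 0.0170% and 0% of all genes passed; 0 members had an unadjusted p under 0.05 in any of the 3, and DESeq2 called 0. H2-Aa in WT_M0 was at 56.9, 55.2 and 29.2 CPM with AP-3-84, within reach of the vehicle libraries at 6.49, 46.3 and 52.6 CPM (0.43, SE 0.740). In WT_M1 it was at 18.9, 18.4 and 13.9 CPM against 24.1, 14.8 and 29.9 CPM, and in KO_M1 at 20.4, 22.7 and 21.6 CPM against 19.5, 21.7 and 23.2 CPM. Ciita had 1 count over the treated libraries of each of these 3 groups. With 1 count over the vehicle libraries of WT_M0 and 0 over those of WT_M1, its response was not measurable there at this depth. In KO_M1 it had 8 counts with vehicle, a ratio of vehicle to AP-3-84 of 8.32 with an exact 95% counting interval of 1.12 to 369, which does not cover the spread between libraries. The genotype difference of the response in M1 was called for 0 members by edgeR and by DESeq2, with 0 at an unadjusted p under 0.05, where 0.00849% of all genes passed.

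**Figure D5:**
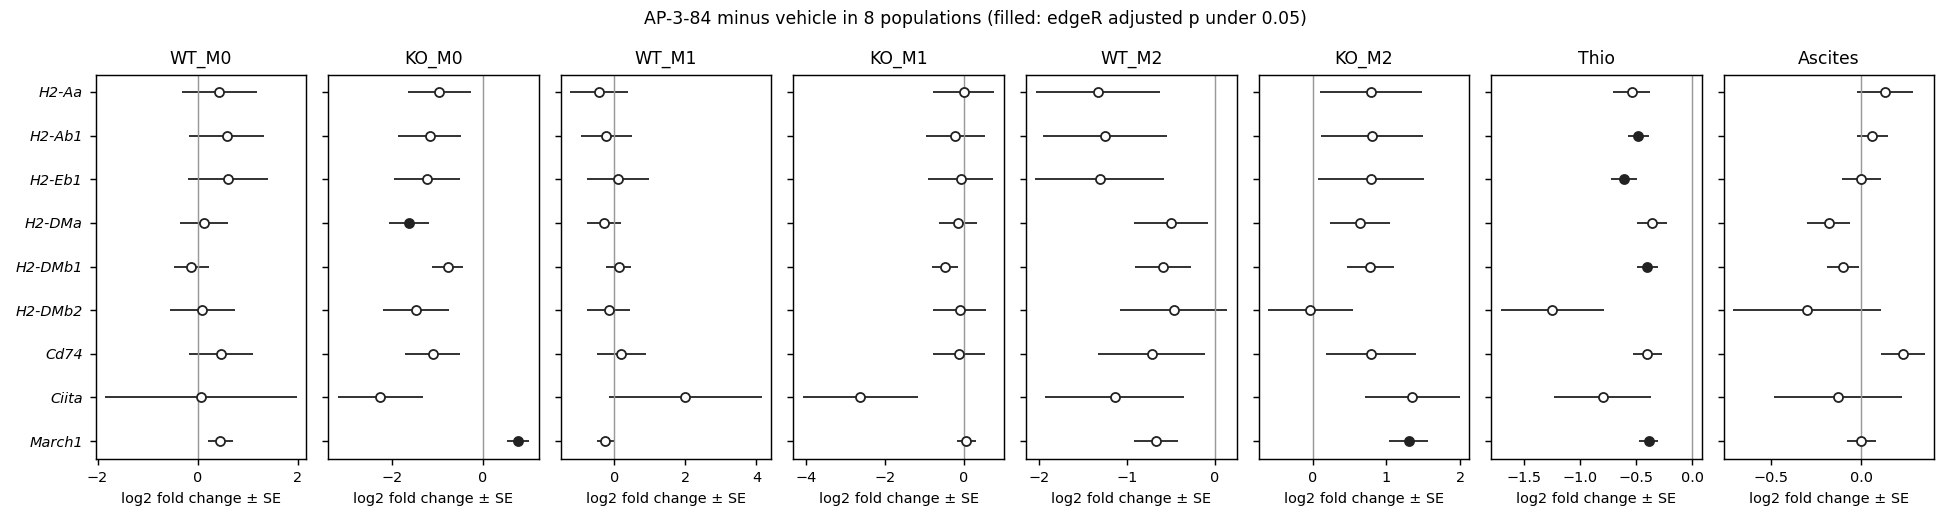
Log2 differences ± SE of the 9 members between AP-3-84 and vehicle groups of 3 libraries in 8 populations; filled points passed the edgeR test. Filled are H2-Ab1, H2-Eb1, H2-DMb1 and March1 in Thio, H2-DMa and March1 in KO_M0 and March1 in KO_M2; March1 is below 0 in Thio and above 0 in the other 2.

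Over the 12 marrow group means, the genes outside the set whose log2 CPM ran closest to the mean of H2-Aa, H2-Ab1, H2-Eb1 and Cd74 were Plxdc2 (Pearson r 0.987), Psap (0.97), Il6st (0.965), Dclk1 (0.963) and Tax1bp3 (0.958), out of 8424 genes compared. Plxdc2, a membrane protein gene, was at 0.224 to 5.96 CPM in WT_M0 vehicle libraries, at 65.4 to 81.2 CPM in KO_M0, at 59.7 to 139 CPM in WT_M2 and at 1.59 to 2.77 CPM in WT_M1. Among these groups Plxdc2 was thus high and low where the chain genes were. In the peritoneum, which was not used to choose it, it was at 49.5 to 54.2 CPM in Ascites and at 30.1 to 35 CPM in Thio vehicle libraries. Psap encodes the precursor of lysosomal saposins, and Il6st the signalling receptor chain gp130. Closest to Ciita were P2ry14 (0.976), Fn1 (0.939) and Knop1 (0.939), and closest to March1 were Bbip1 (0.914), Mocs1 (0.9) and Lypla2 (0.888). The points share libraries and depth, so these values order genes and test nothing.

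Other genes of the class II region were low throughout. H2-Ob, with an X and Y box pair like those above, stayed at or under 1.85 CPM in every library, and H2-Oa at or under 6.11 CPM. H2-Ea-ps, the I-E α chain locus that is not functional in C57BL/6 mice, was at 0 in all 48 libraries, and H2-Eb2 at or under 1.01 CPM. Of the DM β chain genes, H2-DMb1 and H2-DMb2 share 32.0% and 30.3% of their transcript words of 30 bases with each other, so counts could be split between them, and the smaller H2-DMb2 values are uncertain for that reason as well. By GENCODE M21 on GRCm38, all 6 H2 members lie on chromosome 17 between 34119541 and 34316674, Cd74 on chromosome 18 (60803848 to 60812652), Ciita on chromosome 16 (10480059 to 10528418, with Dexi on the opposite strand) and March1 on chromosome 8 (65617900 to 66471637).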

How the data were processed

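The authors deposited raw counts per gene and library for 48 libraries, made by QuantSeq FWD 3′ mRNA sequencing from 100 ng of RNA in single reads of 75 bases, per the labels' protocols. All values in the deposited count table were whole numbers. RSEM, Bowtie2 and DESeq2 are named in the submitters' processing notes, without roles. The aligner's settings, the genome build, the annotation and whether molecular identifiers were read are not given in these sources. Symbols and coordinates came from GENCODE M21 (GRCm38), which held 51596 of 51789 gene IDs. Libraries were grouped by title.

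From the counts, genes were filtered (filterByExpr by group), scaled by TMM and tested in edgeR 4.0.16 (R 4.3.3) by quasi-likelihood, with group means as the design and without a block. The 12 peritoneal libraries (16955 genes) and the 36 marrow libraries (11779 genes) were fitted apart. A gene passed at a two-sided Benjamini-Hochberg adjusted p under 0.05 over all genes, in each of 24 comparisons. Fold changes are on the log2 scale with their standard errors (SE). Counting intervals are exact, and the floor is 3 counts. Since reads may be copies of 1 molecule, intervals and floors cover counting error only. In simulated data, edgeR's test was checked for the recovery of known changes.

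The members and lists were chosen with earlier results of these data known. Every member is named, and of each pathway list up to 2 called genes of the largest change in a comparison, with the genes of most alike pattern (average log2 CPM of 3 or more). Trp53, Cdkn1a, Brd2, Dexi and single marker genes were named outside that rule, after their values were seen. Some genes that the rule would name are not reported here. Alternatives were median-ratio size factors, total-count scaling, no filter, DESeq2 1.42.0, only the groups compared, a replicate block, and leaving out each library. Deviations of same-numbered libraries from their group means had an r over 0.1 for all 3 numbers only between WT_M2 and WT_M0 with vehicle (0.245, 0.207 and 0.311). Promoter windows are from RefSeq.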

Additional observations from a re-analysis of the deposited data

Results flagged for a closer look

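In 12 cases a test of the difference between groups passed for a member, and each is given as a log2 difference of differences from edgeR. The response of March1 to AP-3-84 in M2 cells was higher in KO than in WT by 1.96 (adjusted p 0.00461). The difference of M1 from M0 was lower in KO than in WT for H2-Ab1 at -4.65 (adjusted p 0.00301), H2-DMa at -2.59 (adjusted p 0.00597), H2-Aa at -3.53 (adjusted p 0.0222), Cd74 at -3.05 (adjusted p 0.0228) and H2-Eb1 at -3.62 (adjusted p 0.0287). From M0 to M2 it was lower in KO for March1 at -1.43 (adjusted p 0.00374), Cd74 at -3.35 (adjusted p 0.00736), H2-DMa at -2.18 (adjusted p 0.0102), H2-Eb1 at -3.71 (adjusted p 0.0127), H2-Ab1 at -3.45 (adjusted p 0.0149) and H2-Aa at -3.03 (adjusted p 0.0288). Of 17 refits that kept the filter on low counts, 10 kept the call of H2-Aa from M0 to M2 and 11 that of H2-Eb1 from M0 to M1. The last 11 differences share the WT_M0 and KO_M0 vehicle libraries and are not separate results. The March1 response to AP-3-84 in M2 cells shares the WT_M2 and KO_M2 vehicle libraries with the differences from M0 to M2. It is not separate from these either.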

How the results depend on the processing

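A member passed the edgeR test in 67 pairs of a member and a comparison. Over 873 refits of these pairs, 818 kept the call, 55 lost it and 0 reversed the direction, and 46 pairs kept it in every refit run. The values that follow are counts of called members.

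Without the filter on low counts, the count under AP-3-84 went from 2 to 8 in KO_M0, from 1 to 7 in KO_M2 and from 0 to 4 in WT_M2. It also went from 0 to 2 for KO against WT in M1, from 1 to 4 for M1 against M0 in WT and from 2 to 8 for M2 against M0 in KO. The difference of the compound's responses gave 5 in place of 0 in M0, 8 in place of 1 in M2 and 3 in place of 0 between Ascites and Thio. In that unfiltered marrow fit the prior degrees of freedom were infinite, so a member's own spread carried no weight. The quasi-dispersion used for H2-Aa was 0.649, against 9.22 with the filter.

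With only the groups compared in the fit, AP-3-84 gave 1 in KO_M0 and 0 in KO_M2, KO against WT gave 1 in M1 and 0 in M2, and M2 against M0 in WT gave 3 of 7 tested in place of 7 of 9. The difference between genotypes gave 1 in place of 6 from M0 to M2, and 1 in place of 0 for the compound's response in M0. This fit has fewer samples. DESeq2 gave 1 in place of 0 for that response, and its cause was not tested.

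Leaving out 1 library at a time gave 2 to 4 under AP-3-84 in Thio (2 without vehicle replicate 3 or treated replicate 1 or 2), 0 to 3 in KO_M0 (3 without treated replicate 3), 0 to 3 in KO_M2 and 1 to 4 for M2 against M0 in KO. The genotypes' difference in the compound's response gave 0 to 1 in M0 and 1 to 3 in M2 (3 without KO_M2 vehicle replicate 1, 2 without WT_M2 vehicle replicate 1). Their difference from M0 to M1 gave 2 to 5, with 2 without WT_M0 vehicle replicate 1 or WT_M1 vehicle replicate 3 and 3 without KO_M1 vehicle replicate 2.

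Outside WT_M2 and WT_M0 with vehicle, no pair of groups compared had an r over 0.1 for all 3 same-numbered libraries. Between AP-3-84 and vehicle, r was 0.43, 0.516 and -0.102 in KO_M1 and 0.264, -0.144 and 0.287 in WT_M2. A pairing of some libraries is therefore not excluded. A replicate block across populations changed no call. The block within populations gave 2 in place of 4 under AP-3-84 in Thio, 0 in place of 1 in KO_M2 and 1 in place of 0 for the difference of the responses in M0. In KO_M0 that block lost March1 (0.76 on the log2 scale, edgeR adjusted p 0.0572).

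Total-count scaling moved the median of all genes by over 0.1 in 8 comparisons, by -0.3 for M1 against M0 in WT and by 0.27 for KO against WT in M1. Depth limits Ciita in WT_M0 and WT_M1, where each group of 3 libraries held 0 or 1 counts in all, under the floor of 3 counts.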

Other observations

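The ratio of H2-Ab1 to H2-Aa counts within a library, which does not depend on scaling, differed with M1 polarization. It was 2.27 to 4.02 in the 6 WT_M1 libraries and 1.17 to 2.22 in the 6 KO_M1 libraries. In the 12 M2 libraries it was 0.702 to 0.952, and in the 12 peritoneal libraries 0.675 to 0.93. In WT_M0 it was 0.777 to 1.45, the highest value being that of vehicle replicate 1 with 29 counts of H2-Aa, and in KO_M0 0.79 to 1.11. The counts are not per length, so only the change of the ratio between groups can be read. The ratio of Cd74 to H2-Aa was 0.513 to 0.621 in Ascites libraries and 0.783 to 0.991 in Thio libraries, which do not overlap.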
